A study of Rattus norvegicus with 24 samples.

Results

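The genes described here are 5 genes of lipid synthesis and glycerol transport in fat cells, Acaca, Acly, Pc, Agpat2 and Aqp7, measured in mesenteric arteries of female rats. They were selected on measured values: an earlier analysis of the same arrays found them among the fat cell and lipid genes that were higher after hormone treatment. Every probe with one of these symbols as its single gene symbol was taken and kept apart, which gave 7 probes of 5 genes, out of 10399 probes on the array and 6371 genes with a testable probe. All 7 probes had a value in each of the 12 animals and were tested. Because the choice used the differences between groups, those differences are given as a description, with no p for a single member, and counts of calls only beside the share of all probes. The correlations below were tested on the spread of animals within groups.

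The rats were Sprague Dawley females ovariectomized at 3 weeks of age and studied at 5.5 weeks, so that all groups, controls included, had lost their ovarian hormones. After a recovery of 2 weeks they received daily intraperitoneal injections for 4 days. The 4 control animals (numbered 3, 4, 5 and 8) received the sesame oil vehicle, 4 animals (2, 3, 5 and 8) estradiol benzoate, an estrogen ester, at 0.15 mg/kg/day, and 4 animals (2, 4, 6 and 8) testosterone at 1 mg/kg/day. Arteries of the gut mesentery were cleaned of fat, veins and connective tissue by dissection, so fat cells were meant to be absent. The cRNA of an animal was read on 2 CodeLink arrays. These duplicates correlated at 0.976 to 0.993 and were averaged, so that the animal is the replicate. Levels are log2 of the deposited spot intensity, which is scaled so that each array's median lies at 0.926 to 0.951. A level of 0 is therefore close to the middle of an array.

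White fat cells make fatty acids from glucose carbon and store them as triglyceride. Pyruvate carboxylase (Pc) feeds the citrate cycle in mitochondria with oxaloacetate, citrate leaves for the cytosol, ATP citrate lyase (Acly) splits it to acetyl-CoA, and acetyl-CoA carboxylase alpha (Acaca) turns that into malonyl-CoA, the building block of fatty acid synthase. Agpat2 adds the second fatty acid to the glycerol backbone, and the channel Aqp7 lets glycerol leave the cell when triglyceride is broken down. The arteries of the gut lie in such fat, so that a trace of it left after dissection brings these transcripts into an artery sample. In RNA from whole tissue, fewer cells of a type and less RNA per cell cannot be told apart.

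The RefSeq promoter table (build GRCr8) held 2 of the 5 members, Acly and Agpat2. Their upstream sequences are shown because they were the only members with a window. Acly had a higher mean after estradiol benzoate alone, Agpat2 after both hormones. A link between the sequences and these patterns was not tested. Each sequence is the 250 bases before the transcript start that the table uses, read 5′ to 3′ on the minus strand, chr10:85963632-85963881 for Acly and chr3:29826158-29826407 for Agpat2. Capitals mark a CCAAT box, a common promoter element bound by the factor NF-Y.
Acly: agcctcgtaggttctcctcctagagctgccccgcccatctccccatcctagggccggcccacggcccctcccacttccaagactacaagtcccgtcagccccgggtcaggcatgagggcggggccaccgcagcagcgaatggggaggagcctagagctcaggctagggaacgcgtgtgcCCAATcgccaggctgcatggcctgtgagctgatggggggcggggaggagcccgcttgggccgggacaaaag
Agpat2: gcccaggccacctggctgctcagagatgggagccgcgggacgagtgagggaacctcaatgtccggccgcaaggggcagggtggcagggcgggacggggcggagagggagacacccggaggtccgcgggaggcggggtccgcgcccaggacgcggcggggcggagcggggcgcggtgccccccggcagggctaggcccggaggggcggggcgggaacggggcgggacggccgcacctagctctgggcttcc
Both were rich in G and C, at 68.0% in Acly and 78.4% in Agpat2. The CCAAT box of Acly lies at positions -71 to -67 relative to the start, and its letters were found on either strand in 34.0% of 33469 promoters of the same length. Neither window held the letters TCACNCCAC of a sterol regulatory element (0.97% of promoters), the E-box CACGTG (5.59%) or AGGTCA, the half-site of an estrogen response element (14.1%), on either strand. A match or its absence describes the letters of these windows only. By the same reference, Acly spans 85912402 to 85964605 on chromosome 10 and Agpat2 29814924 to 29826569 on chromosome 3. Both windows lie inside these spans, which extend further upstream, so they do not precede the outermost end of the gene. Acaca lies at 69511627 to 69773888 on chromosome 10, Pc at 211228708 to 211327792 on chromosome 1 and Aqp7 at 60968495 to 60982618 on chromosome 5. The position of a probe within its gene was not analysed here.

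All 7 probes had a higher mean after estradiol benzoate than after vehicle, by 1.33-fold (Agpat2) to 1.93-fold (an Acaca probe). After testosterone, Agpat2 and Aqp7 were higher by about as much as after estradiol benzoate, Pc was in between, and Acly was not higher. The bright and the dim Acaca probe had testosterone log2 differences of 0.23 (SE 0.25) and 0.60 (SE 0.36). That of the dim Acaca probe was the largest of the 7 probes. In limma's moderated test adjusted by Benjamini-Hochberg over all 10228 probes, 0 of the 7 were called in any comparison. Over all probes, 0% were called for estradiol benzoate against vehicle, 0.0489% for testosterone against vehicle and 0.0293% between the hormones. At an unadjusted p under 0.05 there were 7 of 7 members for estradiol benzoate against vehicle, where 13.5% of all probes passed, 3 of 7 for testosterone against vehicle, where 14.0% passed, and 1 of 7 between the hormones, where 4.13% passed. Every estradiol benzoate animal lay above every vehicle animal for 5 of 7 members, a pattern shown by 3.53% of all probes. Every testosterone animal lay above every vehicle animal for 2 of 7, against 2.45% of all probes. For no member, 0 of 7, did every estradiol benzoate animal lie above every testosterone animal, against 1.88% of all probes. Since the members were selected on these contrasts, nothing is read from these counts. The median log2 difference of the 7 probes was 0.72 for estradiol benzoate against vehicle and 0.50 for testosterone against vehicle, where all probes had medians of -0.01 and -0.01.

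**Figure D1:**
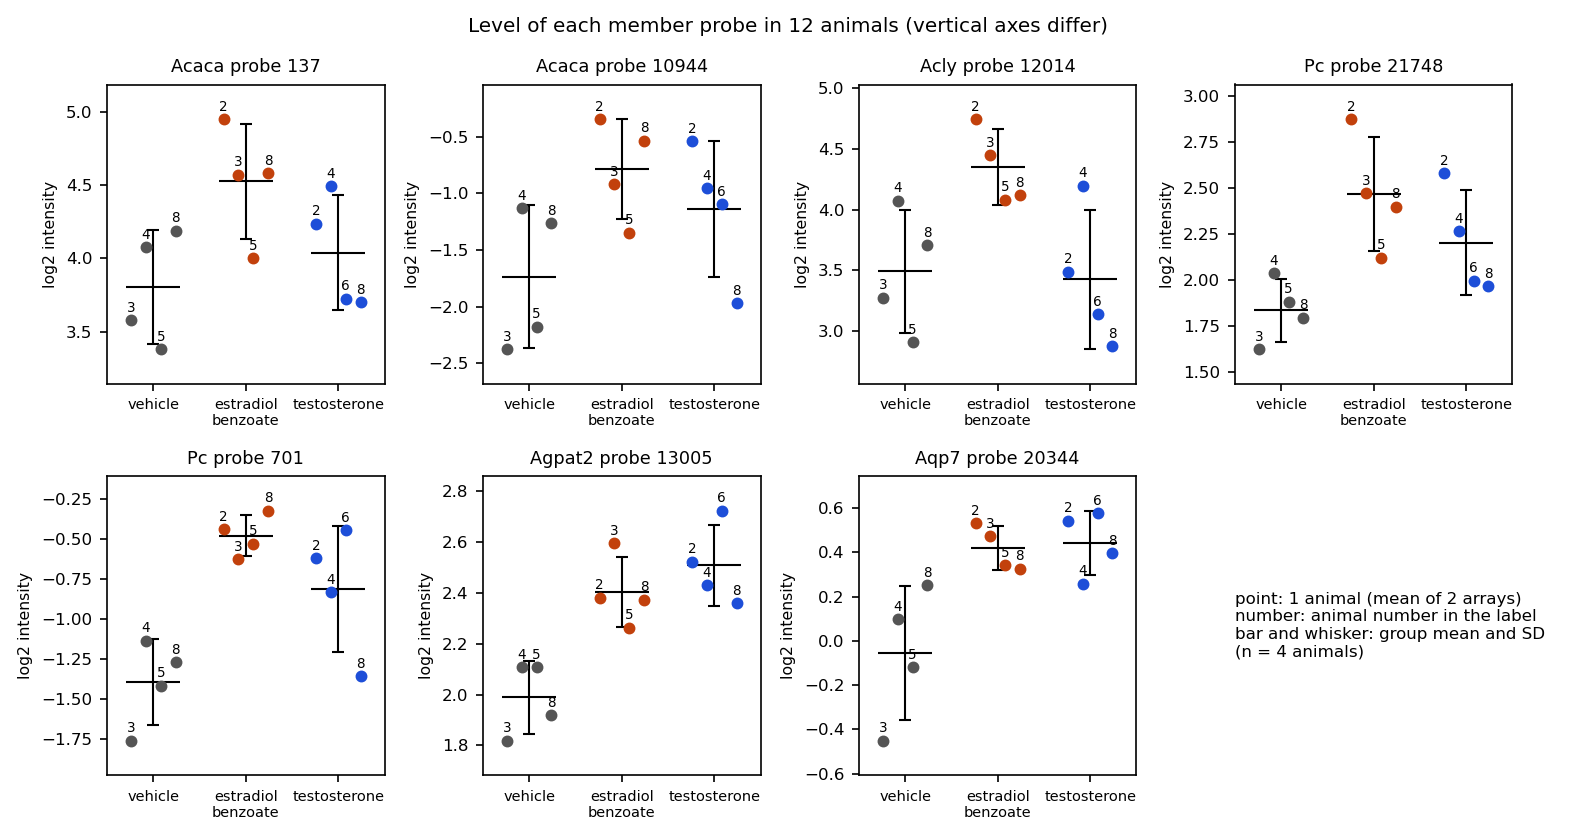
Log2 intensity (vertical axes, which differ between panels) of the 7 member probes in vehicle, estradiol benzoate and testosterone animals. Each point is 1 animal with its number, and bar and whisker are the group mean and SD (n = 4). Agpat2 and Aqp7 are higher in both hormone groups, whereas the testosterone animals of Acly and of the bright Acaca probe overlap the vehicle range.

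Acly, the enzyme that makes cytosolic acetyl-CoA, had vehicle levels of 3.28, 4.08, 2.91 and 3.71 in animals 3, 4, 5 and 8. The estradiol benzoate animals 2, 3, 5 and 8 stood at 4.75, 4.45, 4.08 and 4.12, and the testosterone animals 2, 4, 6 and 8 at 3.49, 4.20, 3.14 and 2.87. Estradiol benzoate and vehicle did not overlap, but the lowest treated animal and the highest vehicle animal lay next to each other at 4.08. Testosterone animal 4 was as high as the estradiol benzoate animals, and its other 3 animals lay within or below the vehicle range. The log2 difference from vehicle was 0.86 (SE 0.30, n = 4 and 4; 1.81-fold) after estradiol benzoate and -0.07 (SE 0.30) after testosterone. The hormones differed by 0.92 (SE 0.30), the largest difference between them among the 7 probes.

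Acaca, which makes malonyl-CoA in the committed step of fatty acid synthesis, had 2 probes. Its bright probe (137) read 3.58, 4.08, 3.38 and 4.19 in the vehicle animals, in the order given above. It read 4.95, 4.57, 4.00 and 4.58 after estradiol benzoate and 4.24, 4.49, 3.72 and 3.70 after testosterone. All 3 groups overlapped: estradiol benzoate animal 5 lay below vehicle animals 4 and 8, and testosterone animals 2 and 4 lay above all vehicle animals while 6 and 8 lay within their range. The difference from vehicle was 0.72 (SE 0.25, 1.65-fold) after estradiol benzoate and 0.23 (SE 0.25) after testosterone. Its dim probe (10944) reads the same gene with less signal, at percentile 34.9 of all tested probes.

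The dim Acaca probe stood at -2.37, -1.13, -2.18 and -1.26 in the vehicle animals. Estradiol benzoate animals had -0.34, -0.92, -1.35 and -0.54, and testosterone animals -0.54, -0.95, -1.09 and -1.97. Vehicle animals 3 and 5 were the low ones and 4 and 8 the high ones, as on the bright probe. The difference was 0.95 (SE 0.36) after estradiol benzoate and 0.60 (SE 0.36) after testosterone. Within groups the 2 probes had r = 0.83 (exact permutation p = 0.0085, adjusted p = 0.051 over 12 pairs, n = 12 animals).

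Pc, the mitochondrial enzyme that supplies oxaloacetate for citrate, also had 2 probes. The brighter one (21748) read 1.63, 2.04, 1.88 and 1.80 in the vehicle animals. It read 2.87, 2.47, 2.12 and 2.40 after estradiol benzoate and 2.58, 2.27, 2.00 and 1.97 after testosterone. Every estradiol benzoate animal was above every vehicle animal, and testosterone animals 2 and 4 were above them too. The differences from vehicle were 0.63 (SE 0.18, 1.55-fold) and 0.37 (SE 0.18). On the dim probe (701) the vehicle animals had -1.76, -1.13, -1.41 and -1.27, the estradiol benzoate animals -0.44, -0.63, -0.53 and -0.32, and the testosterone animals -0.62, -0.83, -0.45 and -1.36. Here 3 of 4 testosterone animals lay above all vehicle animals and animal 8 lay among them. This probe differed by 0.91 (SE 0.19) after estradiol benzoate and 0.58 (SE 0.19) after testosterone. The 2 arrays of an animal varied most on this probe, with an SD of 0.26 against 0.09 to 0.16 on the others, and within groups its r with the brighter probe was 0.40 (exact permutation p = 0.25).

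Agpat2 makes phosphatidic acid on the way to triglyceride, and its loss in humans and mice leads to lipodystrophy. Vehicle animals stood at 1.82, 2.11, 2.11 and 1.92, estradiol benzoate animals at 2.38, 2.60, 2.26 and 2.37, and testosterone animals at 2.52, 2.43, 2.72 and 2.36. All 8 hormone-treated animals were above all 4 vehicle animals. The differences were 0.41 (SE 0.11, 1.33-fold) and 0.52 (SE 0.11, 1.43-fold), small on the fold scale but with the least spread of the 7 probes. Between the hormones the difference was -0.11 (SE 0.11), and the groups overlapped.

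Aqp7, the glycerol channel of the fat cell membrane, also occurs in the endothelium of small vessels in fat. Its vehicle levels were -0.45, 0.10, -0.12 and 0.25, its estradiol benzoate levels 0.53, 0.47, 0.34 and 0.33, and its testosterone levels 0.54, 0.26, 0.58 and 0.40. Both hormone groups lay above all vehicle animals, although testosterone animal 4, at 0.26, was only just above vehicle animal 8, at 0.25. The differences were 0.47 (SE 0.14, 1.39-fold) and 0.50 (SE 0.14, 1.41-fold), and -0.03 (SE 0.14) between the hormones.

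The question of fat content was put to markers of white fat cells. Of 18 such genes, 11 had a testable probe, and of the 6 that define the cell type only Adipoq, the gene of the fat hormone adiponectin, was among them. The leptin gene Lep had a value in 1 animal, and Retn, Cfd, Plin1 and Cidec had no probe with a single symbol. Adipoq read 4.73, 4.55, 4.55 and 4.90 in the vehicle animals, 4.70, 4.54, 4.56 and 4.59 after estradiol benzoate, and 4.74, 4.31, 4.91 and 4.54 after testosterone. Adipoq was thus read well above the array median in every animal, vehicle included, and its levels in the 3 groups overlapped. Adipoq differed from vehicle by -0.08 (SE 0.13, limma adjusted p = 0.797) after estradiol benzoate and by -0.06 (SE 0.13, adjusted p = 0.853) after testosterone. The fatty acid binding protein Fabp4 differed by 0.30 and 0.26 (SE 0.13), and the bright lipase marker Pnpla2 by 0.34 and 0.19 (SE 0.13). The fat cell transcription factor Pparg differed by 0.11 and 0.21 (SE 0.21) on its brighter probe and by 0.33 and 0.46 (SE 0.24) on its other probe. The hormone-sensitive lipase Lipe differed by 0.38 and 0.32 (SE 0.35). For 2 of the 11 markers, Pnpla2 and Cebpa, every estradiol benzoate animal lay above every vehicle animal, a pattern of 3.53% of all probes. Over the whole list, 9 of 11 markers were higher and 2 lower after estradiol benzoate (median 0.30), and 8 were higher and 3 lower after testosterone (median 0.21), with 0 called in limma's adjusted test. At an unadjusted p under 0.05, 3 were higher and 1 lower after estradiol benzoate, and 1 higher and 0 lower after testosterone. Of all probes, 13.5% and 14.0% passed that threshold in these comparisons. The highest was Cebpa, a fat cell and liver transcription factor (0.80 and 0.68, SE 0.32), and the lowest the activin receptor Acvr1c (-0.77 and -0.58, SE 0.30). Dimmer second probes of the markers were not counted. That of Cd36 stood at 0.60 and 0.63 (SE 0.30), against 0.37 and 0.35 (SE 0.27) on its brighter probe. Those of Acvr1c, Adrb3 and Mgll stood at 0.02 and 0.40 (SE 0.25), -0.23 and 0.11 (SE 0.27), and -0.06 and -0.17 (SE 0.27).

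A white fat score was formed as the mean of the 11 markers, each as its log2 distance from its mean over the 12 animals. It ranged from -0.30 to 0.06 in the vehicle animals, from -0.11 to 0.20 after estradiol benzoate and from -0.35 to 0.42 after testosterone, with means of -0.12, 0.07 and 0.04. The groups overlapped, and the 2 extremes of the whole series, animals 4 and 6, were both given testosterone. Of the 5 members, none is part of the score. Brown fat, liver, pancreas and artery wall markers were scored in the same way.

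**Figure D2:**
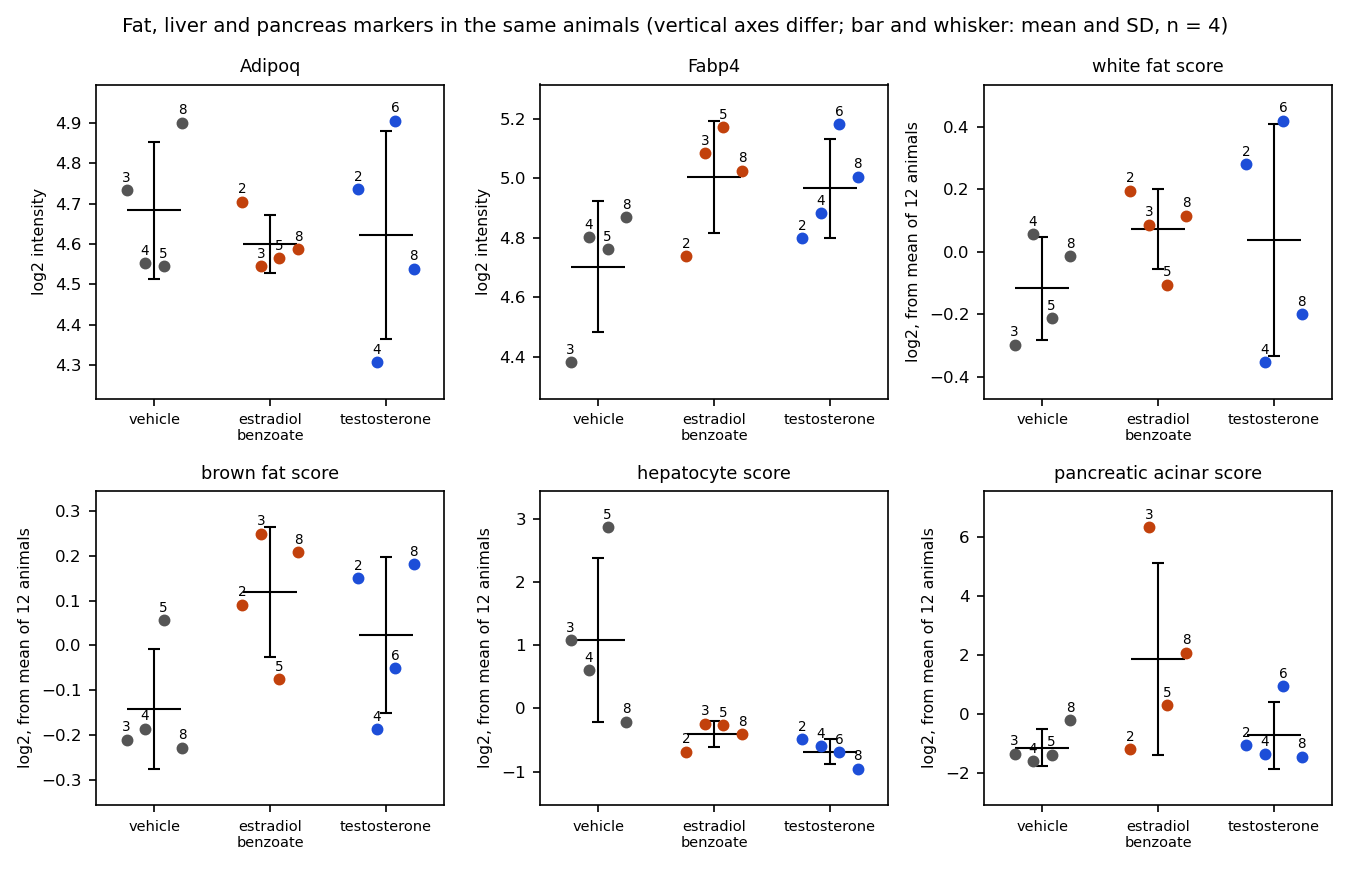
Log2 intensity of Adipoq and Fabp4 and 4 marker scores (log2 from the mean of the 12 animals) by group. Points are animals with their numbers, bars and whiskers the group mean and SD (n = 4). Adipoq and the white fat score overlap between all groups, the hepatocyte score is high in vehicle animals 3, 4 and 5, and the pancreatic acinar score in estradiol benzoate animal 3.

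With the white fat score as a covariate in the fit, the estradiol benzoate difference was 0.84 for Acly (0.86 without it), 0.67 for the bright Acaca probe (0.72) and 0.68 for the dim one (0.95). It was 0.55 and 0.75 for the Pc probes (0.63 and 0.91), 0.34 for Agpat2 (0.41) and 0.36 for Aqp7 (0.47). The 7 differences kept their direction and were nearer to 0, least so for Acly and most so for the dim Acaca probe. Within groups, r of the score was 0.04 with Acly and 0.17 with the bright Acaca probe. Without testosterone animals 4 and 6 it was 0.79 and 0.87, and the covariate fit was not repeated without them. The small shift of Acly is therefore not read as a weaker tie to fat content. After testosterone, Agpat2 stood at 0.46 (0.52 without it) and Aqp7 at 0.41 (0.50). With Adipoq alone as the covariate, the estradiol benzoate differences were 0.81 for Acly, 0.71 and 1.01 for Acaca, 0.63 and 0.96 for Pc, 0.43 for Agpat2 and 0.52 for Aqp7. For Agpat2 and Aqp7 they were 0.53 and 0.53 after testosterone. The score shares the group contrast with the members, and Adipoq is 1 gene, so how far fat content sets the differences was not tested beyond these values.

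**Figure D3:**
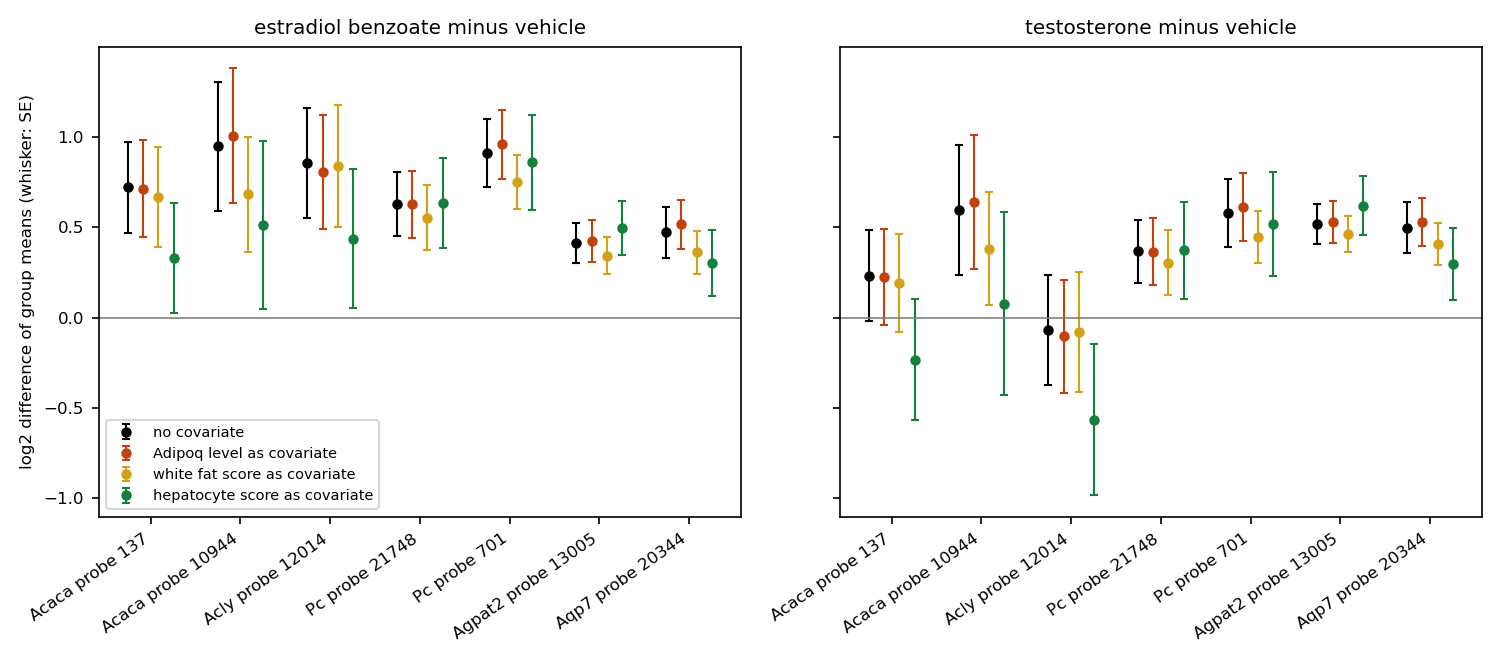
Log2 difference from vehicle (vertical axis, whisker: SE) of each member probe without a covariate and with the Adipoq level, the white fat score or the hepatocyte score added to the fit, 12 animals in each. With Adipoq the values stay close to those without a covariate. With the hepatocyte score those of Acaca, Acly and Aqp7 lie lower, at 0.44 and -0.56 for Acly and 0.30 and 0.30 for Aqp7. That score does not overlap between vehicle and hormone-treated animals.

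Markers of other tissues also differed between the animals. Of 11 measured hepatocyte markers, 10 were lower after estradiol benzoate and 10 after testosterone, and the score ranged from -0.21 to 2.87 in vehicle, from -0.69 to -0.24 after estradiol benzoate and from -0.96 to -0.49 after testosterone, highest in vehicle animal 5. Its brightest markers were the amino acid enzyme Tat (0.05 and 0.14, SE 0.12) and the plasma lipoprotein genes Apoc3 (-0.71 and -1.54, SE 0.60) and Apoa2 (-1.84 and -1.96, SE 0.68). With this score as a covariate the estradiol benzoate difference was 0.44 for Acly (SE 0.38) and 0.33 for the bright Acaca probe (SE 0.31). The testosterone difference was then -0.56 for Acly (SE 0.42), against -0.07 without it, and -0.23 for that Acaca probe (SE 0.34), where it had been 0.23. For the dim Acaca probe the differences were 0.51 and 0.08 (SE 0.46 and 0.51), against 0.95 and 0.60 without it, and for Aqp7 0.30 and 0.30 (SE 0.18 and 0.20), against 0.47 and 0.50. Agpat2 stood at 0.50 and 0.62 with it, and Pc at 0.63 and 0.37 on its brighter probe and 0.86 and 0.52 on the dim one. Every vehicle animal lay above every hormone-treated animal in this score, so it shares the group contrast. Within groups its r was -0.52 with the bright Acaca probe and -0.45 with Acly. Without vehicle animals 5 and 8 these were -0.21 and -0.19. The part of liver RNA in the differences was not tested beyond these values.

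Pancreatic acinar markers were higher after estradiol benzoate in 8 of 8, with a score of 6.32 in animal 3 and -1.21 to 2.07 in the others of that group, -1.61 to -0.22 in vehicle and -1.45 to 0.94 after testosterone. The digestive protease genes Cpa1 (1.89, SE 1.14), Cpb1 (2.59, SE 1.19) and Cela1 (3.32, SE 1.15) were its brightest. Without vehicle animal 5 and estradiol benzoate animal 3 the estradiol benzoate differences were 0.63 for Acly, 0.56 and 0.85 for Acaca, 0.64 and 0.96 for Pc, 0.39 for Agpat2 and 0.43 for Aqp7. Lymphocyte markers were higher in 8 of 8 after both hormones, with scores of -0.74 to -0.21 in vehicle, 0.03 to 0.50 after estradiol benzoate and 0.02 to 0.38 after testosterone. Of all probes, 47.6% and 47.7% were higher in these comparisons. All 8 lymphocyte markers were dim, at percentiles 6.3 to 28.5 of tested probes, so their differences come from weak signal. Stromal markers were lower in 5 of 6 after estradiol benzoate, with scores of 0.14 to 0.27 in vehicle, -0.57 to 0.02 after estradiol benzoate and -0.34 to 0.37 after testosterone. The gene Dpt weighed most in the estradiol benzoate scores, at -2.14 (SE 0.90), where the list median was -0.25 and its mean -0.49. Pi16 was counted as lower at only -0.0004 (SE 0.15). The part of pancreas, lymphocyte and stromal RNA in the members' values was not tested. Brown fat markers were higher in 5 of 6 after both hormones, with scores of -0.23 to 0.06, -0.08 to 0.25 and -0.19 to 0.18 in the 3 groups. The smooth muscle markers of the artery wall were scored from 6 measured genes, the brightest being calponin (Cnn1, -0.25 and -0.16, SE 0.15), Mustn1 and Itga8, with overlapping ranges of -0.09 to 0.24, -0.29 to 0.17 and -0.14 to 0.10. The smooth muscle myosin Myh11 had a value in 1 animal and Tagln in 5, and Acta2 had no single-symbol probe. Endothelial markers ranged from -0.08 to 0.13, -0.12 to 0.07 and -0.13 to 0.18.

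The members were chosen with differences between groups in view, so the spread of animals around their own group mean was used here. The choice may still have weighed that spread, so its independence from the choice is not certain. Within groups, the white fat score had r = 0.71 with Aqp7 (rho = 0.76, exact permutation p = 0.0030 and 0.0046, adjusted p = 0.085 and 0.089), 0.74 with the dim Pc probe (rho = 0.84, p = 0.038 and 0.0064, adjusted 0.32 and 0.089) and 0.64 with Agpat2 (rho = 0.73, p = 0.045 and 0.035, adjusted 0.32 and 0.24). It had r = 0.04 with Acly (rho = 0.11, exact permutation p = 0.94 and 0.79) and 0.17 with the bright Acaca probe (rho = 0.21, p = 0.60 and 0.56). For the dim Acaca probe r was 0.61 (rho = 0.70, exact permutation p = 0.057 and 0.027) and for the brighter Pc probe 0.37 (rho = 0.43, p = 0.32 and 0.23). All tests were two-sided over n = 12 animals, with 13824 arrangements within groups and p adjusted over 28 pairs of probe and score, and 0 of 7 passed at an adjusted p under 0.05, with 3 of 7 at an unadjusted p for r and 4 of 7 for rho. Leaving out the 2 animals farthest from their group mean in the score, testosterone animals 4 and 6, gave r = 0.79 for Acly, 0.87 and 0.98 for Acaca, 0.85 and 0.84 for Pc, 0.51 for Agpat2 and 0.69 for Aqp7. Without animal 4 alone r lay between 0.54 and 0.91 over the 7 probes, and without animal 6 alone between 0.16 and 0.76. The low r of Acly and the bright Acaca probe therefore rests on these 2 animals, on animal 4 more than on animal 6: animal 4 had the lowest score of all with the highest Acly of its group, and animal 6 the highest score with low Acly and Acaca. With Adipoq in place of the score, r was between -0.23 and 0.48. Over the 7 probes, r ranged from -0.51 to 0.32 with the brown fat score, from -0.52 to 0.29 with the hepatocyte score and from -0.15 to 0.52 with the smooth muscle score, and 0 of 7 passed for each (lowest adjusted p = 0.57, 0.32 and 0.32).

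Acaca and Acly varied together from animal to animal, and no such relation was detected for Agpat2. Of 12 pairs of probes compared, chosen after the values were seen, only Acaca with Acly passed (r = 0.88, rho = 0.90, exact permutation p = 0.0011 and 0.00058, adjusted p = 0.013 and 0.0069). Without the 2 farthest animals r was 0.89. The next pair, Acaca with the brighter Pc probe, had r = 0.72 (rho = 0.71, exact permutation p = 0.024 and 0.027, adjusted p = 0.098 and 0.11). Agpat2 had r = 0.03 with Acaca (rho = 0.07, exact permutation p = 0.94 and 0.85) and 0.06 with Acly (rho = 0.05, p = 0.88 and 0.90), and 0.48 with Aqp7 (rho = 0.58, p = 0.16 and 0.087). Whether Acly and Agpat2 differ in their r with Acaca was not tested itself.

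The genes most like each member were sought by r within groups among 7035 single-symbol probes, over the 12 animals. For Acaca the first was Me1, the malic enzyme that makes NADPH for fatty acid synthesis (0.96), then the histamine receptor Hrh1 (0.95) and Lbhd2 (0.93). Elovl6, which elongates palmitate, ranked 23 (0.87) and the fatty acid synthase Fasn 47 (0.82), whereas Adipoq ranked 3725 (-0.04). For Acly they were Phka1 (0.93), Jund (0.91) and Cyp4a8 (0.90), with Me1 at rank 7 (0.88). Scarb1, the receptor for high-density lipoprotein, led for Agpat2 (0.91), followed by Mypop (0.84) and L3hypdh (0.83). Pc had Pdlim7 (0.93), Sharpin (0.93) and Slc37a1 (0.92), and Aqp7 had Ube2g1 (0.94), Dclk1 (0.92) and Rab6a (0.92). Each is the extreme of many correlations over 12 animals. Several were also dim, with mean levels of -2.41 for Hrh1, -3.21 for Lbhd2, -3.47 for Phka1 and -2.67 for Jund. Cyp4a8 had -2.94, Mypop -3.44 and Dclk1 -2.19.

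The brightest probe of each member was set beside 5 further genes of fat metabolism, 25 correlations chosen after values were seen. The adjusted p cover these 25 pairs only, not the search of 7035 probes that Me1 led for Acaca. They are therefore printed as a description. Acaca had r = 0.96 with Me1, 0.87 with Elovl6 and 0.82 with Fasn (rho = 0.91, 0.83 and 0.85, exact permutation p = 0.00051, 0.00051 and 0.0020 for r, adjusted 0.0042, 0.0042 and 0.011). Acly had 0.88, 0.84 and 0.83 with the same 3 genes (rho = 0.88, 0.85 and 0.86, exact permutation p = 0.0024, 0.0044 and 0.0026, adjusted 0.011, 0.016 and 0.011). Pck1, which makes the glycerol backbone from pyruvate in fasted fat and is lowered by insulin, went the other way. It had r = -0.92 with Acaca (rho = -0.90, exact permutation p = 0.00022 and 0.00065, adjusted 0.0042 and 0.0078) and -0.74 with Acly (rho = -0.78, p = 0.019 and 0.011, adjusted 0.061 and 0.034). Without the 2 animals farthest in the second gene, r of Acaca was 0.96 with Me1, 0.84 with Elovl6, 0.80 with Fasn and -0.90 with Pck1, and that of Acly 0.92, 0.85, 0.74 and -0.62. Pc had r = 0.67 with Me1 (rho = 0.67, exact permutation p = 0.033 and 0.033, adjusted 0.091 and 0.093), 0.45 with Elovl6, 0.54 with Fasn and -0.56 with Pck1, of which 0 of 4 passed an adjusted p under 0.05. For Agpat2 and Aqp7, r with these 4 genes lay between -0.18 and 0.42, and 0 of 8 passed an adjusted p under 0.05. Adipoq had r between -0.23 and 0.48 with the 5 members (lowest exact permutation p = 0.17). Without its 2 farthest animals, testosterone 4 and 6, r was 0.57 with Acaca, where it had been -0.04, 0.36 with Acly (-0.23), 0.25 with Pc (-0.03), -0.38 with Agpat2 (0.15) and 0.32 with Aqp7 (0.48).

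**Figure D4:**
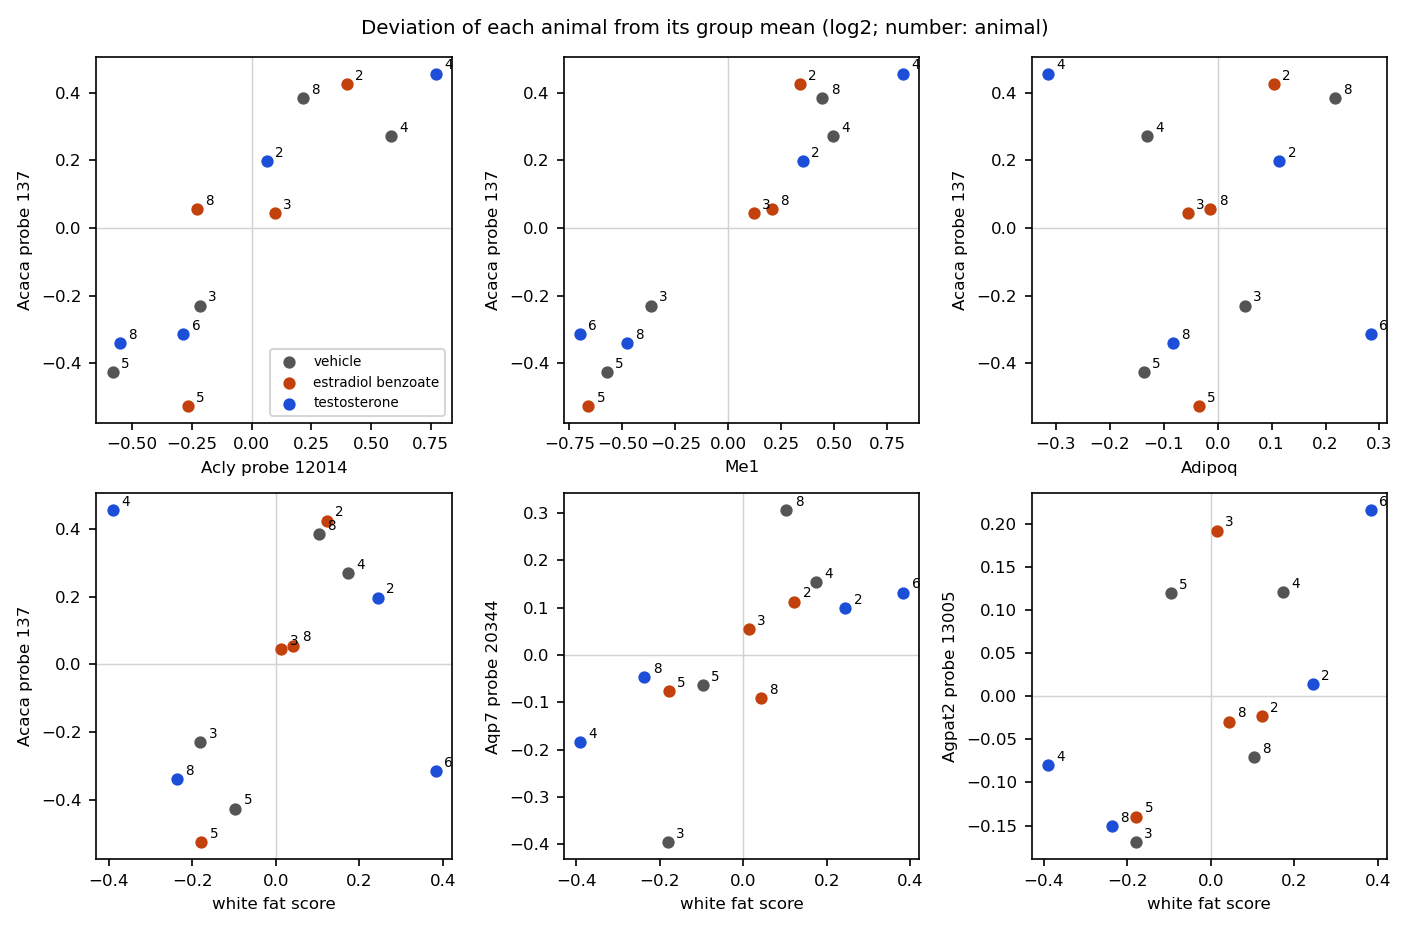
Deviation of each animal from its group mean on the log2 scale for 6 pairs of measures. Points are animals, coloured by group and numbered. Acaca rises with Acly and Me1 (r = 0.88 and 0.96), has r = -0.04 with Adipoq over all animals and 0.57 without testosterone animals 4 and 6, and those 2 animals also depart from the white fat score, whereas Aqp7 has r = 0.71 with that score (adjusted p = 0.085).

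The single animals show the shared order. Me1 read 2.92, 3.78, 2.71 and 3.73 in the vehicle animals, 4.70, 4.48, 3.70 and 4.57 after estradiol benzoate and 4.00, 4.48, 2.95 and 3.17 after testosterone. Pck1 read 4.73, 4.61, 4.99 and 3.85, then 3.70, 4.15, 4.91 and 4.04, then 4.00, 3.30, 4.86 and 4.44. In each group the animal with the lowest or next to lowest Acaca (vehicle 5, estradiol benzoate 5, testosterone 6) had the highest Pck1. Fasn had 4.30, 4.63, 3.40 and 4.29 in vehicle, 5.34, 4.89, 4.67 and 5.07 after estradiol benzoate, and 4.76, 4.80, 4.42 and 4.08 after testosterone. Its estradiol benzoate animals lay above all vehicle animals, by a mean of 0.84 (SE 0.26).

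Genes of the surrounding pathways were counted list by list, without the members. Some white fat markers were counted here again. They were Cebpa and Pparg among the regulators, and Fabp4, Lipe, Adrb3, Cd36, Pnpla2 and Mgll among the genes of lipolysis and fatty acid uptake. In limma's test adjusted over all probes 0 of 65 measured genes were called in any of the 3 comparisons. After estradiol benzoate 46 of 65 were higher and 19 lower, 14 higher and 1 lower at an unadjusted p under 0.05, with a median of 0.16 where all genes had -0.01. After testosterone 42 were higher and 23 lower, 6 and 2 at an unadjusted p, with a median of 0.11. Between the hormones 38 were higher after estradiol benzoate and 27 after testosterone, 2 and 0 at an unadjusted p. Of all probes, 13.5%, 14.0% and 4.13% passed that unadjusted threshold in these 3 comparisons, in the order given and in either direction. No pathway response is read from these counts. The lists were written with earlier results of these arrays known.

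For fatty acid synthesis, 10 of 14 measured genes were higher after estradiol benzoate (median 0.32) and 10 of 14 after testosterone (median 0.19). The testosterone median was -0.05 without vehicle animal 5 and -0.01 without testosterone animal 4. The highest after estradiol benzoate was the desaturase Scd2 (0.84, SE 0.58), and the acetyl-CoA synthetase Acss2 stood at 0.53 (SE 0.15) with 0.02 after testosterone. The mitochondrial carboxylase Acacb was the highest after testosterone (0.57, SE 0.25), and the desaturase Fads2 the lowest after both (-0.27 and -0.55, SE 0.30). Scd2 and Acacb were dim, at percentiles 27.0 and 11.1 of tested probes. Elovl6 stood at 0.81 (SE 0.43) and 0.19.

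The list of citrate and NADPH supply, to which Pc belongs, was higher in 9 of 9 after estradiol benzoate (median 0.32). After testosterone 8 of 9 were higher (median 0.16). The 9 include the kinases Pdk2 and Pdk4, which restrain pyruvate dehydrogenase, so they are not all suppliers. Me1 led after estradiol benzoate (1.08, SE 0.37; 0.37 after testosterone), and its other probe stood at 1.23 (SE 0.42). Pdk2 led after testosterone (0.81, SE 0.33), with 0.97 after estradiol benzoate. Citrate synthase (Cs) was the lowest after estradiol benzoate (0.06, SE 0.10) and Pdk4 after testosterone (-0.03, SE 0.18).

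Glycerolipid assembly, the list of Agpat2, had 6 of 11 higher after estradiol benzoate (median 0.05) and 5 of 11 after testosterone (median -0.004). Gpam, which adds the first fatty acid to glycerol phosphate, led in both (0.59 and 0.40, SE 0.23), and the phosphatase Plpp3 was the lowest in both (-0.31 and -0.58, SE 0.21). The triglyceride-forming Dgat2 stood at 0.40 and 0.40 (SE 0.18) and Dgat1 at -0.23 and -0.004 (SE 0.17). The other acyltransferases of the Agpat family lay from -0.08 to 0.16 after estradiol benzoate and from -0.11 to 0.31 after testosterone. Among 3 genes of glycerol handling, glycerol kinase (Gk) stood at 0.09 and 0.18 (SE 0.17), Pck1 at -0.35 and -0.39 (SE 0.36), and the glycerol channel Aqp3, which skin and kidney use, at -0.28 and -0.25 (SE 0.18).

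Among 18 regulators, 12 were higher after estradiol benzoate (median 0.06) and 11 after testosterone (median 0.09), close to all genes. Cebpa was the highest and Prkaa2, a catalytic subunit of the AMP-activated kinase that inactivates acetyl-CoA carboxylase by phosphorylation, the lowest (-0.52 and -0.38, SE 0.10). Srebf1, Srebf2, Mlxipl, Thrsp, Insig1 and the desaturase Scd were not analysed here. Of 10 genes of lipolysis and fatty acid uptake, 8 were higher after estradiol benzoate (median 0.28) and 7 after testosterone (median 0.17), with the lipoprotein receptor Vldlr highest after the first (0.48, SE 0.10) and the adrenergic receptor Adrb3 after the second (0.49, SE 0.18). A second Adrb3 probe disagreed, at -0.23 and 0.11 (SE 0.27). The lipase inhibitor G0s2 was lowest after estradiol benzoate (-0.33, SE 0.20) and the lipase Mgll after testosterone (-0.30, SE 0.25).

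**Figure D5:**
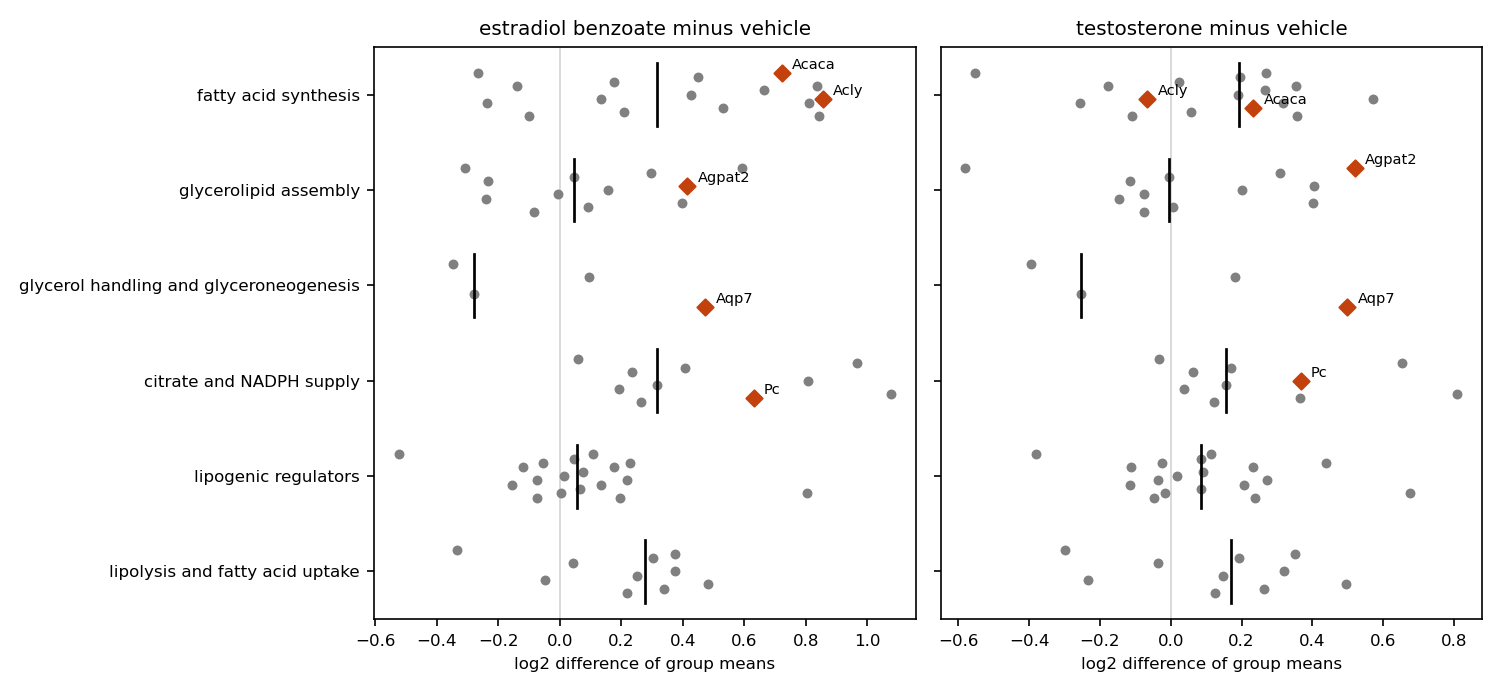
Log2 difference from vehicle (horizontal axis) of the measured genes of 6 lipid pathway lists after estradiol benzoate (left) and testosterone (right). Grey points are genes, diamonds the members, named beside them, and vertical bars the median of each list without members. Citrate and NADPH supply has all 9 genes above 0 after estradiol benzoate, the restraining kinases Pdk2 and Pdk4 included. Agpat2 and Aqp7 lie to the right of most genes of their lists.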

How the data were processed

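The authors' deposited table holds linear spot intensity for 24 CodeLink arrays. The scanner software, background correction and scaling are not given in the sources. Values at or below 0 (327 in all) and blank spots (152 to 665 per array) were left out, log2 was taken, and the 2 arrays of an animal were averaged. Probes with values from 3 or more animals per group were tested (10228 of 10399). Group means were fitted to 12 animals with limma 3.58.1 in R 4.3.3 (9 residual and 2.51 prior degrees of freedom), and two-sided p adjusted by Benjamini-Hochberg. Where a gene had several probes, the brightest stood for it outside the members. Named genes were every member probe, the highest and lowest gene of each pathway list against vehicle, and set regulators and enzymes. Defining fat markers and the 3 genes most like each member were named too. Acss2, Elovl6, Fabp4, Pnpla2, Lipe, Acvr1c, Cd36, Dpt, Pi16 and Aqp3 were chosen after their values were seen. The members and lists were chosen with earlier results of these data known. The fit and the permutation test were tested on simulated data. Precision is limited by the number of animals, 4 per group. The labels tie animal numbers to no litter or day.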

Additional observations from a re-analysis of the deposited data

Results flagged for a closer look

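Of 39 sets of 4 animals examined (member levels and marker scores by group), 2 had an animal far from its group, where chance gives about 1 in 20. The brown fat score of vehicle animal 5 was 0.0566, the highest of its group, while the other vehicle animals lay from -0.23 to -0.19. The pancreatic acinar score of testosterone animal 6 was 0.945, and the others of its group lay from -1.45 to -1.05. No member level was among the 2.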

How the results depend on the processing

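Over 25 or 24 alternatives for each probe and comparison, 513 member differences moved by less than the SD of animals and 6 moved by more. With the hepatocyte score as a covariate these were Acaca and Acly after testosterone (above). With animal number as a replicate block, the testosterone difference of the dim Acaca probe was 0.02 and of the dim Pc probe 0.27, and the difference between hormones of that Pc probe was 0.64; on AA arrays only it was -0.02. With the block, the difference between hormones was 1.25 (SE 0.21) for Acly, against 0.92 (SE 0.30) without it. For the bright Acaca probe it was 0.73 (SE 0.19), against 0.49 (SE 0.25). The SE rose from 0.11 to 0.14 for Agpat2 and from 0.14 to 0.18 for Aqp7. Same-numbered animals of different groups deviated together with r from -0.12 to 0.30. The labels tie the numbers to no litter or day, so they were not taken as pairs, and whether they mark one was not tested. With the block 0 probes were called in all 3 comparisons. Acly after testosterone changed sign under 5 alternatives, between -0.56 and 0.13. Probes called over the whole array (0 for estradiol benzoate against vehicle, 5 for testosterone against vehicle, 3 between hormones) changed, in that order, to 1, 3 and 1 on AA arrays only, 0, 4 and 0 on AB arrays only, 5, 2 and 5 on the brighter probes only, 0, 8 and 0 after quantile normalization, 3, 5 and 4 with trend and robust settings, 0, 1 and 0 with only the 2 groups compared, 0, 3 and 1 with the white fat score, 0, 3 and 0 with Adipoq and 0, 19 and 2 with the hepatocyte score as covariate, and 0, 29 and 0 without vehicle animal 5 and estradiol benzoate animal 3 (chosen after seeing the data). Leaving out each animal gave 0 to 2, 0 to 45 and 0 to 1. For estradiol benzoate the count was 2 without vehicle animal 5, and 1 when estradiol benzoate animal 5 was left out. For testosterone it was 45 without vehicle animal 5 and 11 without vehicle animal 8, 3 or 1 without estradiol benzoate animals 8 or 3, 1 without testosterone animals 4 or 8, and 0 when vehicle animal 3 or one of testosterone animals 2 and 6 was left out. Between hormones it was 0 or 1 whichever animal was left out. The cause was not tested. The number of members that passed with the white fat score was 1 (Aqp7, against 0) on AB arrays only and with the median over markers, and 0 to 1 when each animal was left out (1 without estradiol benzoate animal 8). The r of Acly with the score changed sign to -0.025 on AB arrays only and -0.072 with the median over markers, and ranged from -0.15 to 0.68 when each animal was left out. With Adipoq in place of the score r was -0.042 for the bright Acaca probe, -0.23 for Acly and -0.028 for the brighter Pc probe. Of the list medians, 401 moved by less than the SD of animals and 7 by more.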
